A study of Homo sapiens with 4 samples.

Results

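Gene levels were compared between HCT116 cells that had received a plasmid encoding TTC22V1 and HCT116 cells that had received the empty vector. HCT116 is an established human colon cancer cell line. The comparison rests on 2 of the 4 libraries of the study, chosen by the treatment named in their labels, with 1 library on each side. Cells were transfected with 2 µg of pCMV-entry plasmid carrying TTC22, or with 2 µg of control vector, and RNA was taken 48 h later. The insert is driven by the promoter of the pCMV vector, so its level is set by the plasmid and not by the TTC22 gene of the cells. The other 2 libraries came from HCT116 cells given 3 pooled siRNAs against TTC22 at 100 nM in all, or a scramble siRNA at 100 nM, and serve here to show where a gene stood outside the pair. All 4 groups share the cell line and the harvest time, and were transfected with plasmid or with siRNA, and no untransfected cells were analysed here. Values are read as FPKM, which count fragments relative to transcript length and library size. Each table listed 47251 genes. Of these, 10191 averaged 1 FPKM or more across the pair and were called measured, and 60 of them were listed at exactly 0 in 1 library of the pair and are described apart, which left 10131. With 1 library a side there is no replicate error and no test, and every difference below is a difference between libraries. Levels are set side by side across 2 tables that may have been normalized separately.

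TTC22 encodes a protein with tetratricopeptide repeats, helical repeats that in many proteins form a surface for binding partners. Proteins of this large class often act as adaptors, for instance as co-chaperones that bind HSP70 and HSP90. HCT116 cells carry an activated RAS pathway, in which growth factor ligands, receptors, feedback inhibitors and the cell cycle regulator cyclin D1 are linked, and the gene groups below are ordered by such roles.

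The label of the cells was checked against marker genes. Of 10 markers of colon and simple epithelium, 6 were at 1 FPKM or more in every library, among them KRT8, KRT18, KRT19, EPCAM, CDH1 and CDX2, and the summed level was 1097 FPKM with TTC22V1 and 1261 FPKM in vector. The colon markers CDH17, CDX1, VIL1 and LGALS4 were absent or nearly so. Markers of basal and squamous epithelium differed between the libraries. Their summed level over 7 genes was 0.696 FPKM with TTC22V1, 82.8 FPKM in vector, 1.85 FPKM in scramble and 66.6 FPKM in the siRNA pool. Fibroblast markers summed to between 2.54 and 3.81 FPKM. Leukocyte markers summed to 6.04 FPKM with TTC22V1 and 6.78 FPKM in vector, and to 42.7 FPKM in scramble and 37.3 FPKM in the siRNA pool, nearly all of it CD68. PTPRC and CD3E were listed at 0 in both plasmid libraries.

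TTC22 (ENSG00000006555, minus strand of chromosome 1 in hg38, from 54779712 to 54801323, 7 exons) stood at 24215 FPKM with TTC22V1, 4.46 FPKM in vector, 10.7 FPKM in scramble and 6.54 FPKM in the siRNA pool. The plasmid library therefore carried TTC22 far above the others. The value is for the gene as a whole, so the isoform that the label calls V1 was not identified. Reads of the plasmid and of the cells' own gene cannot be told apart in these values. Of the FPKM summed over its library, TTC22 took 12.8%. Weighted by transcript length, which approximates its share of fragments, it made up 14.6% with the longest transcript and 16.9% with the union of exons. A share of that size lowers every other gene by 0.23 or 0.27 on the log2 scale, and the median log2 fold over measured genes was −0.21. Folds are therefore given on the log2(FPKM + 1) scale after subtracting that median, and are called centred. The centred log2 fold of TTC22 was 12.32.

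Most genes stood close together in the pair. Of the 10131 genes with no 0, 72.7% lay within 1.25-fold of the median, and the centred log2 fold ran from −0.19 to 0.20 between the quartiles, with an SD across genes of 0.52. Higher and lower below mean a centred log2 fold of 1 or more in size, which is 2-fold. By that rule 242 genes were higher with TTC22V1 (2.39% of those tested) and 257 were lower (2.54%), or 499 in either direction (4.93%). Before centring the same rule gave 185 higher and 385 lower, since every fold then carries the shift of −0.21. Among the 9253 genes with 4 or more exons 172 were higher (1.86%) and 176 lower (1.9%), together 348 (3.76%). Before centring these were 124 and 282.

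**Figure D1:**
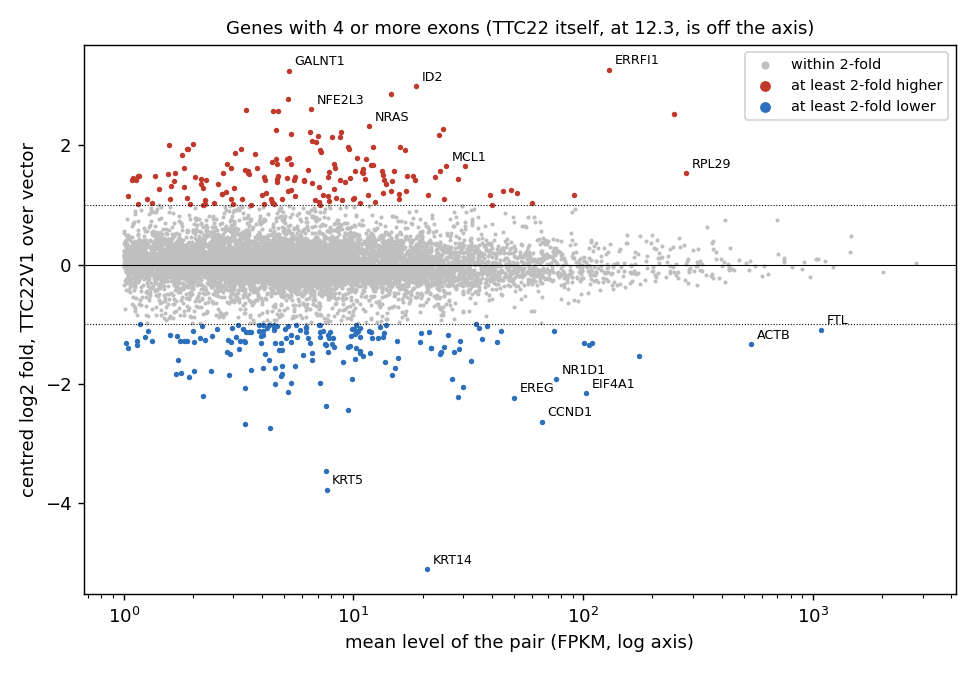
Centred log2 fold of TTC22V1 over vector (vertical axis, on FPKM + 1) against the mean level of the pair (horizontal log axis, FPKM) for genes with 4 or more exons, each point being 1 gene. The 172 higher genes are red and the 176 lower genes blue, dotted lines mark 2-fold, and KRT14 lies lowest at −5.12.

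The highest genes after TTC22, among those with 4 or more exons and a mean of at least 5 FPKM, had different roles. ERRFI1 (chromosome 1, 8004404 to 8026309, minus strand), a feedback inhibitor of the EGF receptor, was at 232 FPKM with TTC22V1, 26.8 in vector, 662 in scramble and 546 in the siRNA pool, a centred log2 fold of 3.27. GALNT1 (chromosome 18, 35581117 to 35711834, plus strand), which starts O-linked glycosylation, was at 10.1, 0.342, 3.25 and 6.75 FPKM in the same order (3.26). ID2 (chromosome 2, 8678845 to 8684461, plus strand), which blocks DNA binding by other helix-loop-helix factors, was at 33.6, 3.99, 51.7 and 16.6 FPKM (2.998). For all of these the vector library was the lowest of the 4, while the TTC22V1 library lay below both siRNA libraries for ERRFI1, above both for GALNT1 and between them for ID2.

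Vector was also the lowest library for NRAS, a RAS GTPase, at 19.6, 3.76, 25.3 and 27.1 FPKM (2.32), and for EFHD2, a calcium-binding protein, at 40.3, 8.78, 94.2 and 106 FPKM (2.28). PNRC2, a nuclear receptor coactivator with a part in mRNA decay, was at 25.8, 3.27, 15.2 and 12.9 FPKM (2.86), and TERF2IP, a telomere protein, at 14.7, 2.87, 13.4 and 13.2 FPKM (2.23). The zinc finger gene ADNP2 was at 9.57, 0.770, 11.4 and 1.74 FPKM (2.78), so that the siRNA pool sided with vector. For IMPAD1, a Golgi phosphatase gene, the siRNA pool also sided with vector, at 10.97, 1.96, 8.77 and 2.66 FPKM (2.22). NFE2L3, a transcription factor gene, differed from these at 11.7, 1.40, 1.92 and 1.37 FPKM (2.61), and its TTC22V1 level stood above each of the other 3.

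At a mean between 1 and 5 FPKM the highest genes with 4 or more exons were LRRC58 (2.60), C7orf73 (2.59), HMGA2 (2.58), FOSL2 (2.27) and RLIM (2.02). HMGA2, an architectural chromatin protein, was at 8.59 FPKM with TTC22V1, 0.845 in vector, 13.3 in scramble and 10.6 in the siRNA pool, another case of a low vector library. FOSL2, a subunit of AP-1, was at 8.01, 1.16, 2.43 and 2.33 FPKM, and RLIM, a ubiquitin ligase, at 3.66, 0.326, 0.875 and 0.635 FPKM. FOSL2 and RLIM were highest with TTC22V1.

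The lowest genes with 4 or more exons and a mean of at least 5 FPKM were led by keratins of basal and squamous epithelium. KRT14 (chromosome 17, 41582279 to 41586895, minus strand) was at 0.0663 FPKM with TTC22V1, 41.7 in vector, 0.111 in scramble and 22.7 in the siRNA pool, a centred log2 fold of −5.12. Its partner KRT5 (−3.78) and KRT6A (−3.46) split the libraries the same way, with vector and siRNA pool high and TTC22V1 and scramble near 0. Next came CCND1 (chromosome 11, 69641156 to 69654474, plus strand), cyclin D1, which drives entry into the cell cycle. It was at 15.4, 117, 142 and 25.4 FPKM, a centred log2 fold of −2.64. EREG, the EGF receptor ligand epiregulin, was at 14.9, 85.4, 96.4 and 13.9 FPKM (−2.24), and TMED10, which carries cargo out of the endoplasmic reticulum, at 8.24, 48.6, 66.0 and 10.1 FPKM (−2.22). For CCND1, EREG and TMED10 the TTC22V1 library stood with the siRNA pool, below both controls.

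EIF4A1, the RNA helicase of translation initiation, was at 32.7 FPKM with TTC22V1, 173 in vector, 89.7 in scramble and 98.8 in the siRNA pool (−2.16), and shares exonic bases with small nucleolar RNA genes that its values may include. DBNDD1 was at 1.89, 17.1, 12.04 and 11.1 FPKM (−2.44), and the zinc finger gene REPIN1 at 1.04, 9.35, 6.59 and 6.09 FPKM (−2.14). These genes were lowest with TTC22V1. For ATP6V1G1, a subunit of the vacuolar proton pump, vector alone stood apart, at 50.1 FPKM against 9.59 with TTC22V1, 9.13 in scramble and 9.78 in the siRNA pool (−2.06). SPRED2, an inhibitor of the RAS to ERK cascade, was likewise at 12.4 FPKM in vector and at 1.90, 2.10 and 2.20 FPKM in the others (−1.997). PPAN-P2RY11 (−2.38) is a readthrough gene whose reads overlap its neighbours. At a mean between 1 and 5 FPKM the lowest with 4 or more exons were TMEM223 (−2.75), KRT17 (−2.69), the matrix gene EFEMP1 (−2.20), VMA21 (−2.08), an assembly factor of the proton pump, and TWISTNB (−2.01), a subunit gene of RNA polymerase I.

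Among the 106 genes with 4 or more exons and a mean of at least 200 FPKM, several passed 2-fold. RPL29, a ribosomal protein gene, was at 401 FPKM with TTC22V1, 159 in vector, 639 in scramble and 281 in the siRNA pool (1.53). The beta-actin gene ACTB was at 274, 801, 748 and 417 FPKM (−1.34), and FTL, the ferritin light chain that stores iron, at 627, 1551, 1317 and 2426 FPKM (−1.10). HSP90AA1, the inducible HSP90, was at 491, 337, 175 and 203 FPKM (0.75), RPLP0 at 825 against 569 FPKM (0.74), RPL7 at 397 against 296 FPKM (0.63) and ACTG1 at 1601 against 1326 FPKM (0.48), the last 4 within 2-fold. Actin, ferritin and ribosomal protein genes have processed copies elsewhere in the genome, which makes single values uncertain.

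A high gene in the pair can reflect a high TTC22V1 library or a low vector library, and the siRNA libraries are set beside both as description only. Of the 172 higher genes with 4 or more exons, TTC22V1 was the highest of the 4 libraries in 96 and vector the lowest in 122. Of the 176 lower genes, TTC22V1 was the lowest in 125 and vector the highest in 123. Over all 9253 genes with 4 or more exons, TTC22V1 was highest in 13.2% and lowest in 28.7%, and vector was highest in 51.5% and lowest in 10.5%. The last values carry the shift that TTC22 gives its library and any difference in scale between the tables. The 172 and 176 genes were picked for a difference between TTC22V1 and vector, so their counts are raised by that choice.

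A stricter reading, again over genes with 4 or more exons, asked for a margin of 2-fold on FPKM + 1 between the libraries. TTC22V1 stood above all 3 others by that margin in 21 genes, TTC22 included, and below all 3 in 70, of which 53 also passed the 2-fold rule after centring. The levels here are not centred, which favours the lower side. Vector stood above the 3 others in 54 genes and below them in 48, the latter all past the rule. At 5 FPKM or more in the mean, the genes above numbered 13 and those below 44.

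Genes highest in the TTC22V1 library by that margin included NFE2L3 and FOSL2, and others of different roles. MCL1, which blocks apoptosis at the mitochondrion, was at 37.4 FPKM with TTC22V1 and at 13.1, 14.2 and 12.98 FPKM in vector, scramble and siRNA pool (1.65). MAVS, the mitochondrial adaptor of RNA sensing, was at 12.6 against 3.88, 2.40 and 4.88 FPKM (1.69). The peroxisome gene PEX2 was at 8.21 against 2.10, 1.57 and 2.21 FPKM (1.78), and NBL1, a secreted BMP antagonist, at 18.3 against 6.01, 6.29 and 4.50 FPKM (1.67). For MCL1 the other 3 libraries lay close to one another, and for the rest they spread by up to about 2-fold. YES1, a SRC family kinase, followed at 19.6 against 7.03, 8.69 and 8.47 FPKM (1.57), and TARDBP, an RNA-binding protein, at 19.6 against 8.25, 6.67 and 7.36 FPKM (1.36). NFE2L3, NBL1, MCL1, YES1 and TARDBP share exonic bases with a neighbouring gene.

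Genes lowest in the TTC22V1 library by the same margin included DBNDD1, EIF4A1 and REPIN1. NR1D1, the clock repressor REV-ERB alpha, was at 27.7 FPKM with TTC22V1 and at 125, 89.7 and 108 FPKM in vector, scramble and siRNA pool (−1.93). NR1D1 overlaps THRA on the opposite strand, and without a stated strand setting their reads cannot be told apart. HNRNPF, a splicing regulator, was at 9.35 against 44.1, 28.6 and 27.9 FPKM (−1.92), and the noncoding RNA FGD5-AS1 at 1.76 against 9.37, 11.6 and 7.17 FPKM (−1.71). STC2, a secreted glycoprotein induced by stress of the endoplasmic reticulum, was at 5.41 against 22.1, 55.5 and 56.6 FPKM (−1.64), and ELOVL5, a fatty acid elongase, at 6.53 against 24.7, 35.3 and 26.4 FPKM (−1.57).

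Pairs of libraries also stood apart by that margin among genes with 4 or more exons. Vector and siRNA pool lay above TTC22V1 and scramble in 20 genes, with KRT14, KRT5 and KRT6A among them. TTC22V1 and scramble lay above vector and siRNA pool in 14, with ADNP2, IMPAD1 and the adiponectin receptor gene ADIPOR2. Vector and scramble lay above TTC22V1 and siRNA pool in 16 genes, with CCND1, EREG and TMED10. TTC22V1 and siRNA pool lay above both controls in 8, with the nuclear import receptor gene KPNA6 at 11.4 and 10.8 FPKM against 2.44 and 3.23 FPKM.

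**Figure D2:**
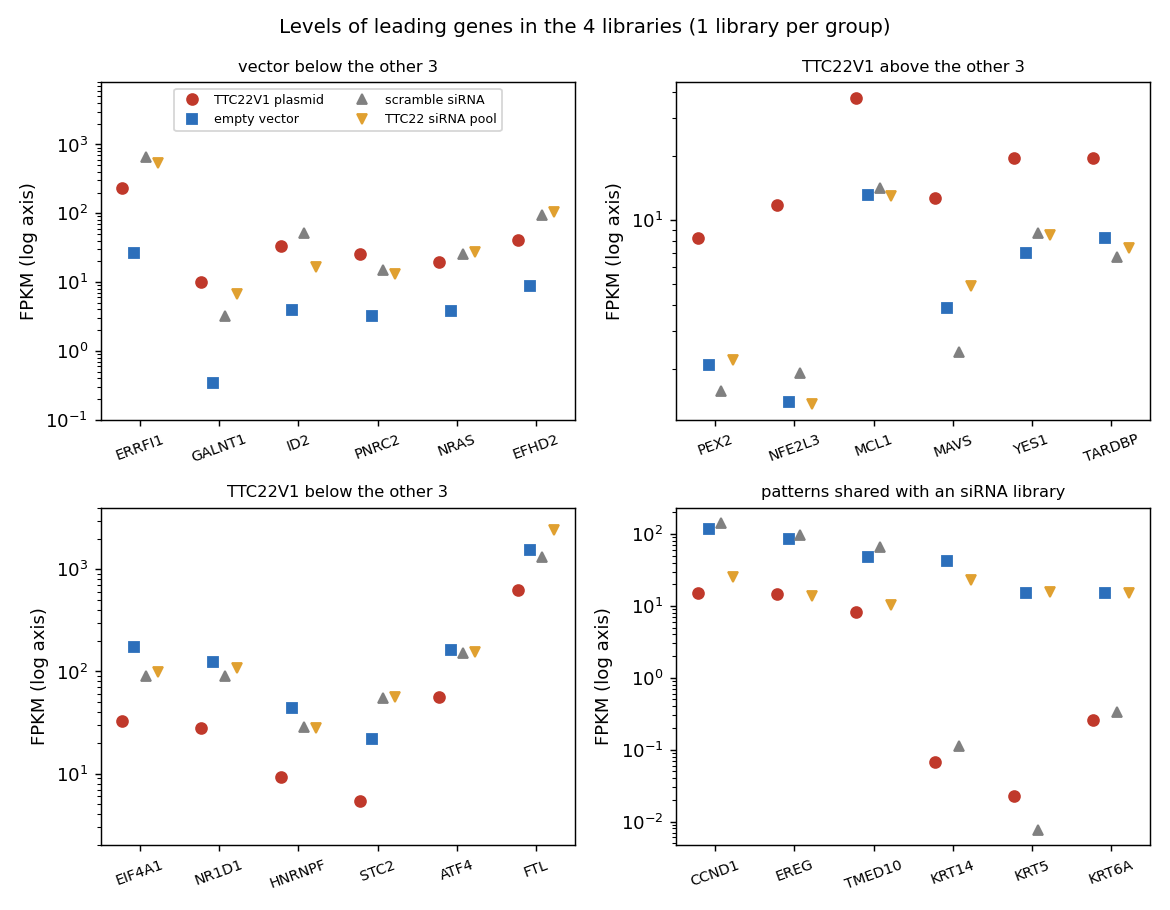
FPKM (log axis) of 24 leading genes in the 4 libraries, with 1 library per group and 1 point per library. In the first panel vector lies below the other 3, in the panels titled so TTC22V1 lies above or below them, and in the last TTC22V1 pairs with the siRNA pool (CCND1, EREG, TMED10) or with scramble (KRT14, KRT5, KRT6A).

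Few-exon genes held a large share of the differences. Of the 840 genes with under 4 exons 69 were higher (8.21%) and 81 lower (9.64%), together 150 (17.9%). By exon number the share past 2-fold was 8.86% of the 79 genes with 1 exon, 23.5% of 289 with 2, 15.9% of 472 with 3, 8.21% of 2108 with 4 to 6, 3.89% of 3419 with 7 to 12 and 1.13% of 3726 with 13 or more. Measured genes listed at 0 are left out of these shares. They numbered 39 with 1 exon, 9 with 2 and 5 with 3, so the 1-exon share is lowered most by leaving them out. COX8A, a respiratory chain subunit with 2 exons, is an example. It was at 149 FPKM with TTC22V1, 2.26 in vector, 97.3 in scramble and 189 in the siRNA pool, so that vector alone stood apart.

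**Figure D3:**
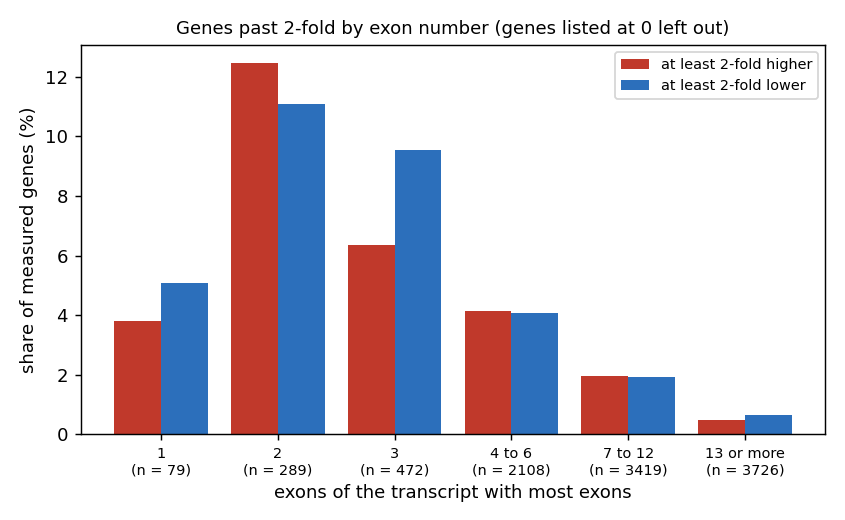
Share of measured genes (vertical axis, %) that were at least 2-fold higher (red) or lower (blue) with TTC22V1, by exons of the transcript with most exons. The share in either direction goes from 23.5% at 2 exons to 1.13% at 13 or more.

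Genes listed at 0 were mostly of this kind. In the TTC22V1 library 33 measured genes were listed at 0, of which 22 had 1 exon and 1 had 4 or more. In the vector library 27 were, of which 17 had 1 exon and 3 had 4 or more. Of the 33, 15 were above 0 in both siRNA libraries, 7 were also listed at 0 in both, and the rest in 1. Of the 27, 7 were above 0 in both and 7 at 0 in both. The highest of those listed at 0 with TTC22V1 was RHOB, a small GTPase, at 84.3 FPKM in vector, 45.8 in scramble and 39.4 in the siRNA pool. IRF2BP1 (18.4, 7.01 and 6.75 FPKM) and the transcription factor gene SOX4 (17.6, 13.5 and 10.1 FPKM) were above 0 in the same 3 libraries. TSPYL1 (30.4 FPKM in vector), SDHAF1 (15.8) and SOX12 (13.6) were also listed at 0 in scramble. Listed at 0 in vector were ADIRF at 180 FPKM with TTC22V1 and 170 in the siRNA pool, and SF3B5, a splicing factor subunit, at 105 and 99.0 FPKM, both also listed at 0 in scramble. SNHG19 (15.7 FPKM), RRS1 (15.6 FPKM), NCBP2-AS2 (13.6 FPKM) and HPS6 (12.8 FPKM) followed. A listed 0 may be a failed estimate, which was not tested, and no fold is given.

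A smaller shift ran across nearly all genes and followed base composition. Genes were put in 5 equal groups by the GC content of their longest transcript. The median centred log2 fold was 0.22 in the group with 29.2 to 40.7% GC, 0.12 at 40.7 to 45.9%, 0.00 at 45.9 to 52.1%, −0.11 at 52.1 to 58.6% and −0.18 at 58.6 to 75.7%. In the AT-rich group 80.9% of genes lay above 0, against 17.3% in the GC-rich group. Across 10093 genes Spearman's rank correlation between GC content and the centred fold was −0.48 and Pearson's r −0.26, which describe genes of 1 pair of libraries and not replicates. The siRNA pool over scramble leaned the same way, with a rank correlation of −0.26 over 9695 genes. For TTC22V1 over vector it was 0.13 with transcript length and −0.095 with level.

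The same shift showed by chromosome. The median was −0.17 over 682 genes of chromosome 19, whose genes had a median GC content of 60.0%, and 0.16 over 164 genes of chromosome 13, at 41.5%. Centred on genes of like GC content, these medians were −0.02 and 0.06. The counts past 2-fold did not follow the tilt as closely, with 71 higher and 50 lower in the AT-rich group and 38 and 48 in the GC-rich group. The part of base composition in the list medians below was not tested, and list medians are therefore given also after centring on genes of like GC content.

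**Figure D4:**
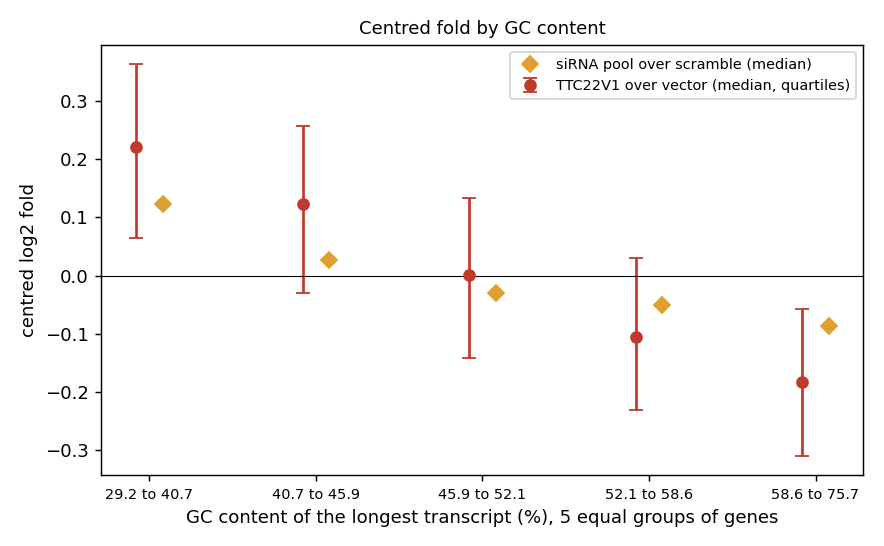
Median centred log2 fold (vertical axis) of TTC22V1 over vector in 5 groups of genes by GC content (horizontal axis, %), with bars from the lower to the upper quartile of genes, and the median of the siRNA pool over scramble as diamonds. The TTC22V1 medians go from 0.22 to −0.18 and the siRNA medians from 0.12 to −0.09.

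The gene groups were read against the background of 2.39% higher and 2.54% lower. Their medians are relative to the median of all genes, so that without centring each is lower by 0.21 and the small positive ones turn negative. In EGF receptor signalling 3 of 11 measured members were higher and 2 lower, with a median of 0.01 (0.17 at like GC). The ligands were uneven. EREG was lower, while AREG was at 163 against 145 FPKM (0.37), TGFA at 10.2 against 8.67 FPKM (0.42) and HBEGF at 2.96 against 5.45 FPKM (−0.50), all within 2-fold. Among receptors, ERBB3 was higher at 3.45 against 1.51 FPKM (1.03), and the siRNA libraries held it at 3.75 and 3.03 FPKM. EGFR was at 2.38 against 4.06 FPKM (−0.37) and ERBB2 at 5.84 against 8.23 FPKM (−0.23). Among the inhibitors ERRFI1 was joined by SOCS5, a suppressor of cytokine signalling with 3 exons. SOCS5 was at 3.74 FPKM with TTC22V1, 0.186 in vector, 1.11 in scramble and 0.271 in the siRNA pool (2.20). CBL, the ubiquitin ligase that sends the receptor for degradation, was lower at 1.29 against 8.46, 8.82 and 8.84 FPKM (−1.84), and so was lowest with TTC22V1.

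In the ERK pathway 0 of 18 members were higher and 2 lower, with a median of −0.10 (−0.03 at like GC). The 2 were CCND1 and SPRED2. Most other output and feedback genes named here were close in the pair, with the phosphatase gene DUSP6 at 46.5 against 46.4 FPKM (0.21), ETV4 at 12.34 against 14.99 FPKM (−0.06), PHLDA1 at 64.0 against 68.9 FPKM (0.10) and the feedback gene SPRY4 at 2.80 against 4.64 FPKM (−0.36). Further apart, though within 2-fold, were the early growth response gene EGR1 at 41.7 FPKM with TTC22V1, 95.5 in vector, 45.1 in scramble and 48.5 in the siRNA pool (−0.97), and the phosphatase gene DUSP14 at 11.2 against 18.6 FPKM (−0.48). Of 21 G1 cyclins, kinases, inhibitors and pocket proteins 0 were higher and 2 lower. Besides CCND1 this was the CDK4 and CDK6 inhibitor gene CDKN2D, at 4.19 against 12.04 FPKM (−1.12), with scramble at 4.29 FPKM. CDKN2D has 3 exons. The kinases CDK4 (0.07) and CDK6 (0.26), cyclin D3 (CCND3, −0.29) and cyclin E1 (CCNE1, 0.32) were within 2-fold. Of 9 Wnt targets and feedback genes CCND1 alone passed, and the median was −0.15 (0.04 at like GC).

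In helix-loop-helix ID and BMP or TGF-beta signalling 1 of 21 members was higher and 3 lower. ID2 was the higher one. Its relatives ID1, at 359 against 422 FPKM (−0.03), and ID3, at 28.5 against 46.0 FPKM (−0.46), did not follow it. The lower ones were the ligand gene TGFB1 (6.37 against 17.6 FPKM, −1.13) and the receptor genes ACVR1B (1.89 against 6.19 FPKM, −1.11) and TGFBR2 (2.52 against 7.58 FPKM, −1.08). TGFB1 stood at 18.2 and 14.2 FPKM in scramble and siRNA pool, and TGFBR2 at 10.8 and 5.12 FPKM, so both were lowest with TTC22V1. ACVR1B was at 5.75 and 1.99 FPKM.

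Basal and squamous epithelial genes had the lowest median of the lists with 9 or more measured members, at −1.52 (−1.56 at like GC). Of 12 measured members 7 were lower and 1 higher, and these include genes that were already known to stand apart in these libraries. The lower ones were KRT14, KRT5, KRT6A, KRT17, TP63, SFN and S100A2. TP63, the master regulator of basal cells, was at 0.00785 against 2.08 FPKM (−1.41), and was listed at 0 in scramble. SFN, the 14-3-3 protein sigma, was at 8.16 FPKM with TTC22V1, 274 in vector, 8.66 in scramble and 262 in the siRNA pool (−4.70). SFN has 1 exon. S100A2, a calcium-binding protein, was at 3.36, 14.7, 2.10 and 16.2 FPKM (−1.64). The higher one was FGFBP1, which releases fibroblast growth factors from the matrix, at 4.62, 0.469, 19.3 and 12.7 FPKM (2.14). Except for TP63, low in the siRNA pool too, and FGFBP1, each of these pairs TTC22V1 with scramble and vector with the siRNA pool. Whether cells of another kind were present was not tested.

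Adhesion genes of basal cells were mostly within 2-fold. Of 20 laminin-332, integrin and hemidesmosome genes 0 were higher and 2 lower, with a median of −0.11 (−0.07 at like GC). Of these COL17A1, the hemidesmosome collagen, was at 0.358 against 4.42 FPKM (−1.79), with 0.570 FPKM in scramble and 3.33 in the siRNA pool. The other was PLEC, the linker plectin, at 20.2 against 47.8 FPKM (−1.001), with 44.2 and 50.3 FPKM in scramble and siRNA pool. The laminins were within 2-fold, with LAMA3 at −0.84 and LAMB3 at −0.66. The integrin gene ITGB4 was at 105 against 128 FPKM (−0.07). Of 13 YAP and matrix response genes 0 were higher and 2 lower, TGFBI (−1.85) and THBS1 (−1.42), which share the pattern. KRT7, the only one of 11 simple and colon epithelial genes to pass, was at 0.4996 FPKM with TTC22V1, 5.27 in vector, 0.725 in scramble and 4.37 in the siRNA pool (−1.86). The simple keratins KRT8 (−0.09) and KRT18 (−0.13) did not differ by the rule. Of 22 EMT regulators and adhesion genes 0 were higher and 2 lower, which were the tight junction genes CLDN1 (−1.32) and F11R (5.52 against 15.4 FPKM, −1.12).

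Heat shock and cytosolic chaperones held 3 higher members and 1 lower among 47, with a median of 0.11 (0.04 at like GC). HSPA1A and HSPA1B, near-identical genes for the inducible HSP70, were among the higher ones. HSPA1A was at 170 FPKM with TTC22V1, 42.7 in vector, 144 in scramble and 204 in the siRNA pool (2.17), and HSPA1B at 331.6, 89.0, 293 and 347 FPKM (2.09). HSPA1A has 2 exons and HSPA1B 1, and vector was the low library in both. Their reads cannot be assigned with certainty. The promoters are shown because they carry the binding letters of the heat shock factor, and to set the copies side by side. They are the 250 bases before and 50 after the start, RefSeq, GRCh38.p14, plus strand, HSPA1A at chr6:31815293-31815592 and HSPA1B at chr6:31827488-31827787, with GAANNTTC in capitals.
HSPA1A: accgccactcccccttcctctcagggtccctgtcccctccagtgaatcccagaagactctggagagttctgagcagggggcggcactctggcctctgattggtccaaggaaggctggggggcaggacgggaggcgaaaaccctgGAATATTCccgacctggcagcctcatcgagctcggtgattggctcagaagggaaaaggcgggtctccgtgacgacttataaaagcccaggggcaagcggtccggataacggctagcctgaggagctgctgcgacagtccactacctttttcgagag
HSPA1B: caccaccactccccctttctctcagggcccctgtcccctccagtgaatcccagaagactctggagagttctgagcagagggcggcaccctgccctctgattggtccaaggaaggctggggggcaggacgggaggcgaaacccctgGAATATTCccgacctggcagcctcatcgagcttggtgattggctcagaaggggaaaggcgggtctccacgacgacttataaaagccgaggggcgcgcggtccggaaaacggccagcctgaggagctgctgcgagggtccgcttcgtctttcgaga
Of 299 aligned promoter bases 277 are identical (92.6%), while the transcripts were not compared. GAANNTTC is its own reverse complement and was found in 10 of the 40 list members with a promoter in the table (25%), against 6.87% of 27305 promoters of the same length. Besides HSPA1A and HSPA1B, the members with a match were within 2-fold, from −0.40 for HSPB8 to 0.27 for DNAJB6. The remaining higher member, PTGES3, had no match. A match is a description of letters and not a site.

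PTGES3, the HSP90 co-chaperone p23, was the other higher member, at 121 FPKM with TTC22V1, 61.6 in vector, 75.8 in scramble and 123 in the siRNA pool (1.17). DNAJB1, an HSP40 that is induced by heat, was at 38.8 against 27.0 FPKM (0.72). The lower member was HSPA13, a microsomal HSP70, at 3.21 against 9.21 FPKM (−1.07). By role, the median was 0.25 over 8 HSP70 genes (0.04 at like GC) and 0.03 over 8 HSP90 genes and co-factors (0.00 at like GC). It was 0.26 over 12 HSP40 and co-chaperone genes (0.20 at like GC), of which 9 lay above 0. These 12 had a median GC content of 47.4%, in the group where 50.1% of all measured genes lay above 0. The proteasome had 0 of 41 members past the rule, with a median of −0.01 (−0.04 at like GC).

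In the endoplasmic reticulum, 2 of 25 chaperone and degradation genes were higher and 0 lower, with a median of 0.14 (0.07 at like GC). DNAJC3, a co-chaperone of BiP, was at 7.61 FPKM with TTC22V1, 2.62 in vector, 17.6 in scramble and 21.4 in the siRNA pool (1.46), so vector was lowest. DERL1, a channel component for misfolded proteins, was at 13.3 against 6.69 FPKM (1.10).

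In the ATF4 amino acid response, which raises amino acid supply under stress, 1 of 28 members was higher and 5 were lower, although the median was 0.16 both ways of centring. ATF4 was at 55.8 FPKM with TTC22V1 and at 163, 152 and 154 FPKM in vector, scramble and siRNA pool (−1.32), so TTC22V1 stood below 3 libraries that were alike. DDIT3, the stress factor CHOP, was at 11.9 against 37.9, 27.6 and 49.7 FPKM (−1.39), also lowest with TTC22V1. PPP1R15B, a phosphatase subunit that reverses the stress signal and has 3 exons, was at 0.139 against 20.6 FPKM (−4.04), with scramble at 0.188 FPKM. SHMT2, a mitochondrial one-carbon enzyme, was at 22.3 against 53.8 FPKM (−1.03), and STC2 is given above. Vector was the highest library for SHMT2, with 24.1 FPKM in scramble and 13.1 in the siRNA pool. TRIB3, a pseudokinase target that feeds back on ATF4, was higher at 34.6 against 12.8 FPKM (1.58). Scramble held TRIB3 at 26.7 FPKM and the siRNA pool at 31.0 FPKM, so vector was lowest. Of 10 amino acid enzymes 8 lay above 0, with ASNS, asparagine synthetase, at 74.0 against 57.5 FPKM (0.57). In the GC group that holds their median of 49.5%, 50.1% of all measured genes lay above 0. TGATGNAA, letters like the shared ATF4 element, on either strand, was found in 5 of 23 promoters of the list (21.7%), against 3.67% of all promoters.

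Hypoxia targets leaned one way without passing the rule. All 14 measured members lay above 0 and 0 passed 2-fold, with a median of 0.30 (0.29 at like GC). In the group at 40.7 to 45.9% GC, which holds their median of 45.6%, 71.4% of all measured genes lay above 0. P4HA1, a prolyl hydroxylase of collagen, was at 65.0 against 48.1 FPKM (0.63), VEGFA, the angiogenic growth factor, at 3.81 against 2.82 FPKM (0.54), and BNIP3, a mitophagy receptor, at 34.5 against 29.7 FPKM (0.41). Before centring these folds are smaller by 0.21. In scramble and siRNA pool P4HA1 stood at 188 and 217 FPKM, well above both plasmid libraries. HIF1A itself was at 15.96 against 15.81 FPKM (0.22). The 19 glycolysis genes had a median of 0.04 (0.12 at like GC).

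Vesicle transport had uneven members. RAB GTPases, which direct vesicles between compartments, held 5 higher and 1 lower of 43, with a median of 0.17 (0.07 at like GC). RAB5B, an early endosome GTPase, was at 11.5 FPKM with TTC22V1, 2.80 in vector, 14.7 in scramble and 10.9 in the siRNA pool (1.92), and RAB12 at 17.4, 5.24, 17.5 and 15.9 FPKM (1.77). RAB43 (1.69) and RAB23 (1.35) shared the low vector library. RAB7A, of late endosomes, was at 77.1, 42.9, 30.8 and 29.1 FPKM (1.04), highest with TTC22V1. RAB11A, of recycling endosomes, was the lower one at 4.56, 15.9, 28.0 and 6.501 FPKM (−1.40). Among 35 genes of the TMED family and of coat proteins 0 were higher and 2 lower, TMED10 and TMED8 (−1.74). For TMED8 vector alone stood apart, at 6.98 FPKM against 1.08 with TTC22V1, 0.843 in scramble and 0.9996 in the siRNA pool. In O-glycosylation, GALNT1 was higher and GALNT10 lower, at 1.21 against 4.94 FPKM (−1.22), among 15 members. No mucin gene of 11 was measured.

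Among 43 lysosome and autophagy genes, GABARAPL1 (11.7 against 4.02 FPKM, 1.55), which coats autophagosomes, and ATG14 (5.40 against 1.54 FPKM, 1.54), which starts them, were higher.

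Immediate early genes, which answer growth signals within minutes, had 3 higher and 1 lower of 27, with 2 further members listed at 0. BTG1, an antiproliferative gene with 2 exons, was at 12.2 FPKM with TTC22V1, 1.21 in vector, 25.8 in scramble and 29.7 in the siRNA pool (2.78). FOSL2 and MCL1 were the other higher members, while the AP-1 genes JUN (−0.23), FOS (−0.01) and FOSL1 (−0.47) were within 2-fold. GADD45B, a stress-induced gene, was lower at 10.6, 28.7, 60.1 and 71.1 FPKM (−1.14), while EGR1 is given above. Among the 19 list members with a promoter in the table, only that of FOSL2 holds the AP-1 letters TGANTCA. Members without one, FOSL1 among them, were not searched. The FOSL2 promoter (RefSeq, GRCh38.p14, plus strand, chr2:28392608-28392907) is shown with these letters in capitals. It was chosen because FOSL2 was the AP-1 gene whose TTC22V1 level stood above the other 3 libraries.
FOSL2: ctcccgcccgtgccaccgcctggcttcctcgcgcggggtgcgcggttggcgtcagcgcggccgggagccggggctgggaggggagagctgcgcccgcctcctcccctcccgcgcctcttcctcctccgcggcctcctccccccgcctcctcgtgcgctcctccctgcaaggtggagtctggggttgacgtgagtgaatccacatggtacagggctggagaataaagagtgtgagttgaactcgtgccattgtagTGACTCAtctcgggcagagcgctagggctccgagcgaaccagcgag
TGANTCA, its own reverse complement, was found in 1 of 19 promoters of the immediate early list (5.26%) and in 0 of 10 of the ERK list, against 7.76% of all promoters.

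Apoptosis genes went both ways, with 3 higher and 3 lower of 31. Of the protectors MCL1 was higher, and so was BCL2L2 at 8.39 FPKM with TTC22V1, 2.13 in vector, 6.63 in scramble and 7.94 in the siRNA pool (1.79). Of the killers BAK1, a pore former, was lower at 3.37, 11.7, 3.25 and 3.17 FPKM (−1.34). Vector alone stood apart for BCL2L2 and BAK1. TNFRSF12A, the receptor for TWEAK, was lower at 51.7 against 151, 155 and 172 FPKM (−1.32), lowest with TTC22V1, and the death receptor adaptor FADD, with 2 exons, at 0.0225 against 22.4 FPKM (−4.31). Among 29 p53 targets TNFRSF10B was higher (1.17) and PHLDA3, with 3 exons, lower (−1.43).

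NF-kB genes mostly lay below 0. Of 14 NF-kB feedback genes and cytokines 0 were higher, 0 lower and 12 below 0, with a median of −0.16 (−0.17 at like GC). In the group at 52.1 to 58.6% GC, which holds the list's median of 57.1%, only 30.3% of all measured genes lay above 0. RELB was at 6.15 against 13.8 FPKM (−0.85) and TNFAIP3 at 1.46 against 4.04 FPKM (−0.83), while NFKBIA, the inhibitor of NF-kB, was at 15.4 against 13.3 FPKM (0.41). Of 28 interferon-stimulated genes 0 were higher and 3 lower, with a median of −0.06 (0.02 at like GC). Of the lower ones IFITM1 and IFIT5 have 3 exons each. Among the 22 members with 4 or more exons 1 was lower, and the median was 0.05. IFITM1, a viral entry inhibitor, was at 1.84 FPKM with TTC22V1, 9.08 in vector, 12.31 in scramble and 4.45 in the siRNA pool (−1.62), TRIM25, a ubiquitin ligase of RNA sensing, at 6.41, 19.05, 17.8 and 16.6 FPKM (−1.23), and IFIT5 at 0.00914 against 3.29 FPKM (−1.88). Cytosolic DNA sensing had 0 of 6 members past the rule, with TMEM173, which encodes STING, at 2.23 against 2.79 FPKM (−0.03).

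Mitosis genes mostly lay above 0, as did most genes of like GC content. Of 52 mitosis genes 36 lay above 0 and 0 passed, and the median of 0.13 was 0.01 at like GC. In the group at 40.7 to 45.9% GC, which holds the list's median of 41.8%, 71.4% of all measured genes lay above 0. HMMR was at 19.6 against 14.6 FPKM (0.61), SPC25 at 13.2 against 9.94 FPKM (0.58) and CDK1 at 19.3 against 15.8 FPKM (0.48). All of these stood above both siRNA libraries in either plasmid library. Of 49 DNA replication genes GINS1 was higher (5.30 against 1.43 FPKM, 1.58) and its partner GINS3 lower (0.213 against 3.24 FPKM, −1.60). GINS1 was highest with TTC22V1. For GINS3 vector alone stood apart, with scramble at 0.384 FPKM and the siRNA pool at 0.282 FPKM. DNA repair had 0 of 46 members past the rule. Nuclear pore and transport genes had 2 higher of 51, KPNA6 (2.05) and the nucleoporin gene NUP58 (1.08), and a median of 0.12 that was 0.02 at like GC.

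Tubulins were the other way, with 13 of 15 below 0 and a median of −0.28 (−0.19 at like GC). Their median GC content was 54.5%, in the group at 52.1 to 58.6% where 30.3% of all measured genes lay above 0. TUBA1B was at 344 against 486 FPKM (−0.29), TUBB at 331 against 449 FPKM (−0.23) and TUBG1 at 28.0 against 49.5 FPKM (−0.59), all within 2-fold. TUBB2A was the exception, higher at 19.9 against 9.28 FPKM (1.23). In the actin cytoskeleton ACTB and MSN, which links actin to the membrane, were lower and TPM4 was higher among 38. MSN was at 18.9 FPKM with TTC22V1 and at 53.6, 48.9 and 52.9 FPKM in vector, scramble and siRNA pool (−1.25), lowest with TTC22V1, and TPM4 at 50.9 against 28.9 FPKM (1.001).

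In RNA processing, 2 of 59 spliceosome, SR and hnRNP genes were higher and 1 lower, with a median of −0.10 (−0.13 at like GC). CLK1, a kinase of SR proteins, was at 5.44 against 1.59 FPKM (1.52), SRSF6 at 32.5 against 17.0 FPKM (1.10), and HNRNPF was lower. Vector was the lowest library for CLK1, with scramble at 6.65 FPKM and the siRNA pool at 11.2 FPKM, while SRSF6 was highest with TTC22V1. Below 0 lay 7 of 9 snoRNA host genes (median −0.33 and −0.39 at like GC), and SNHG12 was at 2.51 against 6.72 FPKM (−0.93). The host genes had a median GC content of 46.6%, in the group where 50.1% of all measured genes lay above 0. Cytosolic ribosomal proteins had a median of −0.03 over 83 genes (−0.04 at like GC), with RPL29 higher and RPS15 lower (80.0 FPKM with TTC22V1, 268 in vector, 174 in scramble and 93.7 in the siRNA pool, −1.53). Of 76 mitochondrial ribosomal proteins 2 were lower, led by MRPL57 (−3.72), which has 2 exons. Of 77 respiratory chain subunits 2 were higher, COX8A (5.73) and UQCRFS1 (1.32), and 2 lower, UQCR10 (3.67 against 31.6 FPKM, −2.60) and COX7A2L (−1.48). COX8A, UQCRFS1 and UQCR10 have 2 exons each. Of 49 translation factors EIF4A1 alone passed.

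In metabolism few genes passed. Of 37 sterol and fatty acid genes IDI1 was higher (1.45), and DHCR7 (−1.13) and ELOVL5 were lower. Of 20 NRF2 targets 0 were higher and 2 lower, FTL and the regulator gene NFE2L2 (3.86 against 10.3 FPKM, −1.02). The TCA cycle enzyme gene IDH3A was higher at 9.10 against 4.47 FPKM (1.09). Amino acid and glucose transporters had 0 of 37 members past the rule, with the cystine transporter gene SLC7A11 at 5.33 against 3.59 FPKM (0.67). Aminoacyl-tRNA synthetases had 0 of 20 past the rule, MHC class I genes 0 of 12, ribosome biogenesis factors 0 of 36 and metallothioneins 0 of 4. Of 40 genes of RNA polymerase II and Mediator MED11, with 3 exons, alone passed (1.07), and the median was −0.13 (−0.07 at like GC). Among m6A factors 0 of 21 passed and 1 was listed at 0. The TTC family, which shares repeats with TTC22, had 0 of 23 other measured members past the rule, with 18 above 0 and a median of 0.12 (0.07 at like GC). In the group at 40.7 to 45.9% GC, which holds this list's median of 45.0%, 71.4% of all measured genes lay above 0.

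**Figure D5:**
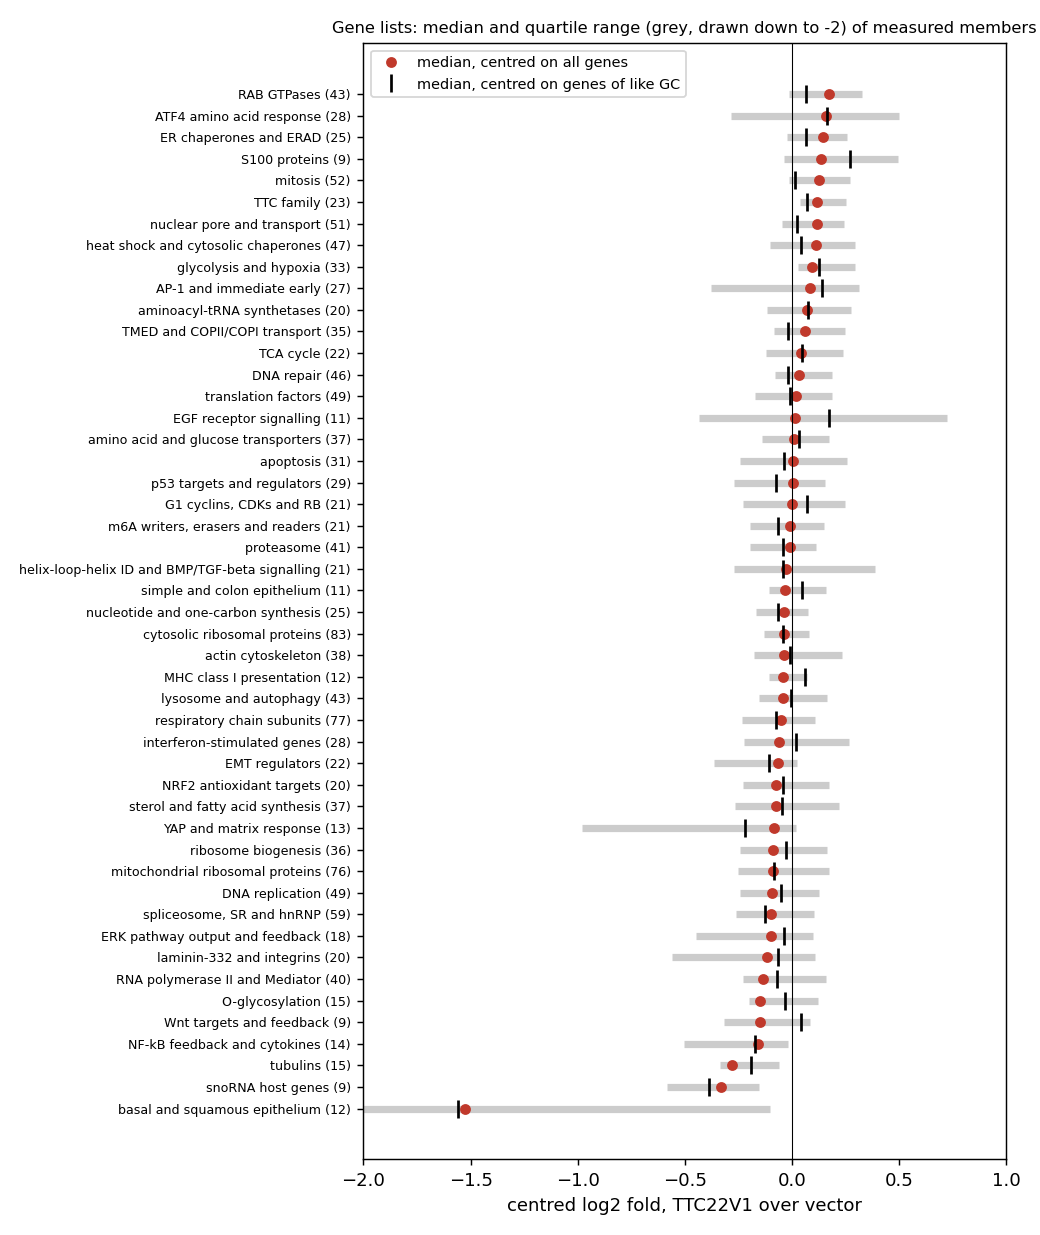
Median centred log2 fold (horizontal axis) of each gene list with 9 or more measured members, given in parentheses after the list's name (vertical axis), with grey bars from the lower to the upper quartile of members and black ticks for the median centred on genes of like GC content. The basal and squamous list stands at −1.52 and RAB GTPases at 0.17, which becomes 0.07 at like GC.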

How the data were processed

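Polyadenylated RNA was sequenced as paired-end TruSeq libraries, per the labels' protocols. The aligner STAR and the build hg38 are named, without versions, per the submitters' processing notes. The deposited values, made by the authors, are read as FPKM. The headers name no unit, so this is inferred. The sources used here name no quantifier, annotation or strand setting, and the depth of each library is unknown.

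Folds were taken on log2(FPKM + 1), a pseudocount of 1 that makes the change of genes with low levels look smaller. Genes had to average 1 FPKM or more. Exons, coordinates and GC content came from GENCODE 44, which held 91.6% of the identifiers and 99.6% of the measured genes with no 0. Of these, 47.8% share exonic bases with another gene. Rows without a symbol (2844) were not named.

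The genes and the 55 gene lists were chosen with earlier results of these data known. Named were TTC22, the 12 highest and 12 lowest genes at a mean of at least 5 FPKM and the 5 at each end below it, all with 4 or more exons, the 8 furthest at 200 FPKM or more, 6 genes listed at 0 in each direction, 6 at each end outside the other 3 libraries, and, per list, up to 4 members whose folds were largest, plus members needed for a role. YES1, TARDBP, STC2 and ELOVL5 outside the last ranking, and members named beyond 4, were added after their values were seen. Centring within 20 bins of GC content was also added then. Python 3.11.15, pandas 2.3.3 and numpy 2.4.6 were used, and the script was tested on simulated data. Some genes that the rules name are not reported here.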

Additional observations from a re-analysis of the deposited data

How the results depend on the processing

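The counts to compare are 242 higher and 257 lower, and 172 and 176 with 4 or more exons. A pseudocount of 0.1 gave 344 and 395, and 263 and 283. Without centring, 282 genes with 4 or more exons were lower and 124 higher. A mean of at least 5 FPKM gave 139 and 132, and 104 and 97. A size of 1.5-fold gave 567 and 586, and 467 and 456, and a size of 4-fold gave 65 and 43, and 25 and 16. Without genes that share exonic bases, which were 47.8% of those tested, the counts were 139 and 146, and 95 and 97. Leaving these out, or asking for a mean of at least 5 FPKM, tests fewer genes. Lower counts there need not mean lower shares. With no filter on level they were 212 and 360, and 142 and 252, which moved the balance towards lower. Scaling by the sum without TTC22 gave 234 and 274, centring on genes with 4 or more exons 238 and 259, and centring within GC bins 237 and 257. Counting the genes listed at 0 gave 269 and 290, and leaving out the basal and squamous list 241 and 250. Over the 236 named genes and these settings 99 calls were lost, 98 were gained and none past 2-fold changed direction. Of the list medians, 49 moved, 34 of them without centring. No paired analysis was possible because each group holds 1 library. Neither replicate error nor depth is known, so the size of a chance difference between libraries cannot be given.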
